A study of Rattus norvegicus with 14 samples.

Results

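The regions described here are the stretches of rat sperm DNA that 2 deposited tables list as candidates for a methylation difference with high-fat diet, one table from males raised without maternal separation and the other from separated males. A member is a pair of rows, 1 from each table, that share at least 1 bp on the same chromosome. There are 376 such pairs, at 361 separate loci, among the 8555 rows of all 5 deposited tables. They take up 369 of the 1583 rows for high-fat diet against control (23.3%) and 368 of the 1603 rows for diet in separated males (22.96%). Pairs were then grouped by the sign of the difference of library means: 111 were lower with the diet in both settings, 97 were higher in both, and 168 were opposite. These signs chose the groups, so they are a description and are given without a test.

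Sperm DNA of male Wistar rats was assayed by reduced representation bisulfite sequencing, which reads CpG methylation at restriction fragments rich in CpGs. By the labels, the 14 libraries fall into males separated as pups and later fed the high-fat diet (ELS-HFD, 3 libraries), separated males on standard chow (ELS, early-life stress, 4), unseparated males fed the high-fat diet (HFD, 4), and unseparated males on standard chow (control, 3). Pups were taken from the dam 3 h a day for 16 days from postnatal day 1. Males of all 4 groups met an elevated plus maze near postnatal day 57 and were divided between the diets at postnatal day 60. The labels do not say whether a library is 1 animal, name no litter, and give no diet composition. The table codes were read as these groups by their letters and their numbers of columns. The comparison of HFD with control shares no library with the comparison of ELS-HFD with ELS, so every pair rests on 14 separate columns.

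Methylation of CpGs is erased in the germ line of the embryo and laid down again before birth in male germ cells. Mature sperm carry high methylation over most of the genome and little at CpG-rich promoters and at control regions of maternally methylated imprinted genes. Partly methylated regions lie between these states, and a mean over sperm cells or alleles can take any value there.

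Each table gives the mean methylation of a region in percent for every library, and the listed regions hold at least 10 CpGs and a deposited difference of at least 2.5 percentage points. Read depth is unknown, so the spread over libraries is the only error that can be given. As a check of the tissue, regions within 1000 bp of a start of maternally methylated imprinted genes stood between 0 and 13.1% in all libraries of all tables (14 rows at 4 of 12 genes). All 28 rows nearest to these 4 genes, at any distance, stood between 0 and 33.3%. The 1 row at the paternally methylated genes (1 of 4 genes) stood between 93.5 and 99.1%, at -18248 bp from the start of Zdbf2. At 2 of 14 germline promoters, 3 rows stood between 1.08 and 9.56%, all within 1000 bp of a start. Among the members, 1 ELS library was the lowest of its group at 180 of 376 pairs and 1 ELS-HFD library at 214. The counts of both lower, both higher and opposite pairs were 111, 93 and 172 without that ELS library and 109, 100 and 167 without that ELS-HFD library.

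Measured regions are placed on Rnor_6.0, with bases counted from 1. The sequences of the regions themselves were not used here. Of 21 members in a promoter context, 14 had a gene symbol in the RefSeq promoter table of the newer assembly GRCr8, and at 9 of these the deposited distance put the centre of the first interval inside that table's window. Among these 9, the leading 2 of each direction by the smaller of their diet differences are shown, as the 250 bases before the RefSeq start, 5′ to 3′ on the gene's strand, with CG pairs in capitals, because at these members the measured region lies at a gene start. The windows and the measured intervals come from different assemblies and were not aligned. At Cdk15 and Tgds the deposited centre lies 41 and 19 bp after the start, so outside the bases shown. The CG counts below describe the bases shown and not the measured regions. Both lower were Cdk15 (GRCr8 chr9:68205509-68205758, plus strand) and Topaz1 (chr8:131235464-131235713, plus strand). Both higher were Tgds (chr15:101602719-101602968, minus strand) and Zkscan5 (chr12:14519538-14519787, minus strand). Opposite were Msh6 (chr6:12333506-12333755, minus strand) and Tmeff2 (chr9:58225373-58225622, minus strand).
Cdk15: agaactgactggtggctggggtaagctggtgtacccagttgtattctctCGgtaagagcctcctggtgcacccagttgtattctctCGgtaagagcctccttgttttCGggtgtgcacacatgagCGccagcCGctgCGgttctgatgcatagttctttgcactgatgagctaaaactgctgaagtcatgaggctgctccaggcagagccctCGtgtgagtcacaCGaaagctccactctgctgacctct
Topaz1: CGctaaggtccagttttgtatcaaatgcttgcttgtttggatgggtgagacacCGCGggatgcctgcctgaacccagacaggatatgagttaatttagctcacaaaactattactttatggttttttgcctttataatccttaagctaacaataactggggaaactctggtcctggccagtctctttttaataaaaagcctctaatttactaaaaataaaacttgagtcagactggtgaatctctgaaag
Tgds: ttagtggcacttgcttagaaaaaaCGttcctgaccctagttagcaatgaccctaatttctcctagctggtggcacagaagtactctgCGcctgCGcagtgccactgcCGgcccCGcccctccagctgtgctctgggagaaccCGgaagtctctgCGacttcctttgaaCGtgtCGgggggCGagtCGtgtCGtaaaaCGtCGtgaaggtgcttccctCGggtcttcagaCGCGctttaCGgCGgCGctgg
Zkscan5: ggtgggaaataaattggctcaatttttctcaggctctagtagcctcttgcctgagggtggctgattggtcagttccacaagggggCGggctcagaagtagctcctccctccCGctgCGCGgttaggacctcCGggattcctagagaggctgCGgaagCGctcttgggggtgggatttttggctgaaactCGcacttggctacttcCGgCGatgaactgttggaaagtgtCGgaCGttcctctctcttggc
Msh6: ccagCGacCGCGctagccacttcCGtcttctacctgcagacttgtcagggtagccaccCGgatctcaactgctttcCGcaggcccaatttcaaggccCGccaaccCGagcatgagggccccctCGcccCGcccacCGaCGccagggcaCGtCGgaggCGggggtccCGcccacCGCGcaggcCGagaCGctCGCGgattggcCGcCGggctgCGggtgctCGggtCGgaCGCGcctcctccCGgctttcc
Tmeff2: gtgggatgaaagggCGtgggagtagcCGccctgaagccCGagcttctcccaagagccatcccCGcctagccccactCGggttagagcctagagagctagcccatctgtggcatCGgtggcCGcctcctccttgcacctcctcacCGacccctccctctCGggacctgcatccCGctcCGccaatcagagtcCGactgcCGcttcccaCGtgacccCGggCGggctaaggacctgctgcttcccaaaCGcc
The number of CG pairs in these 6 windows differed widely. Cdk15 has 8, Topaz1 3, Tgds 20, Zkscan5 12, Msh6 30 and Tmeff2 17, where the median over the 33469 windows of the table is 5. The share of all windows with at least as many is 41.6% for Cdk15, 71.4% for Topaz1, 16.7% for Tgds, 31.5% for Zkscan5, 5.35% for Msh6 and 21.9% for Tmeff2. Methylation at the measured regions of the same genes ran across the scale. Cdk15, which encodes a cyclin-dependent kinase, averaged 47.1 ± 9.34% in HFD and 58.4 ± 8.49% in control, and 47.3 ± 10.8% in ELS-HFD and 57.02 ± 6.93% in ELS (SD, n = 4, 3, 3 and 4). Zkscan5, a zinc finger gene, lay near 80%, with 79.9 ± 3.34% in HFD and 74.997 ± 2.11% in control, and 76.9 ± 3.92% in ELS-HFD and 73.7 ± 6.32% in ELS. The other 4 genes had means under 8% in every group. Msh6, a DNA mismatch repair gene, had 0.6196 ± 0.448% in HFD and 3.47 ± 2.51% in control, and 4.28 ± 3.805% in ELS-HFD and 0.438 ± 0.369% in ELS. Tmeff2, which encodes a transmembrane protein with follistatin-like and EGF-like domains, had 0.612 ± 0.457% in HFD and 3.49 ± 3.86% in control, and 3.19 ± 3.79% in ELS-HFD and 0.587 ± 0.389% in ELS. At both opposite genes the mean was lower in HFD than in control and higher in ELS-HFD than in ELS. Tgds, a nucleotide-sugar dehydratase gene, had 3.83 ± 3.704% in HFD and 0.586 ± 0.309% in control, and 5.07 ± 5.001% in ELS-HFD and 0.468 ± 0.413% in ELS. Topaz1, a germ cell gene needed for male meiosis in mice, had 2.52 ± 1.16% in HFD and 5.11 ± 1.66% in control, and 4.97 ± 1.05% in ELS-HFD and 7.48 ± 2.302% in ELS.

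The first question is how far the diet differences of the 2 settings point the same way. Of the 376 pairs, 208 (55.3%) had the same sign and 168 (44.7%) opposite signs. This has to be read against each whole table: 43.6% of the 1583 rows were lower in HFD than in control and 56.4% higher, while 61.9% of the 1603 rows were lower in ELS-HFD than in ELS and 38.1% higher. Among the members, 178 (47.3%) were lower in HFD and 212 (56.4%) lower in ELS-HFD. Of the 178 members lower in HFD than in control, 111 (62.4%) were also lower in ELS-HFD than in ELS, close to the 61.9% of that whole table. Of the 198 members higher in HFD, 97 (48.99%) were also higher in ELS-HFD, above the 38.1% of the whole table. Taken from the other table, 111 of the 212 members lower in ELS-HFD (52.4%) were lower in HFD, above the 43.6% of that whole table, and 97 of the 164 members higher in ELS-HFD (59.1%) were higher in HFD, where the whole table had 56.4%. Set against the whole tables, which direction stood further above thus depended on the table it was taken from. Set against all members, both directions stood above. The mean was lower in ELS-HFD at 62.4% of the members lower in HFD and at 56.4% of all members. It was lower in HFD at 52.4% of the members lower in ELS-HFD and at 47.3% of all members. Among the opposite pairs, 101 were higher in HFD and lower in ELS-HFD, and 67 were lower in HFD and higher in ELS-HFD. No chance level is given for these shares, and pairs at the same locus are not independent.

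**Figure D1:**
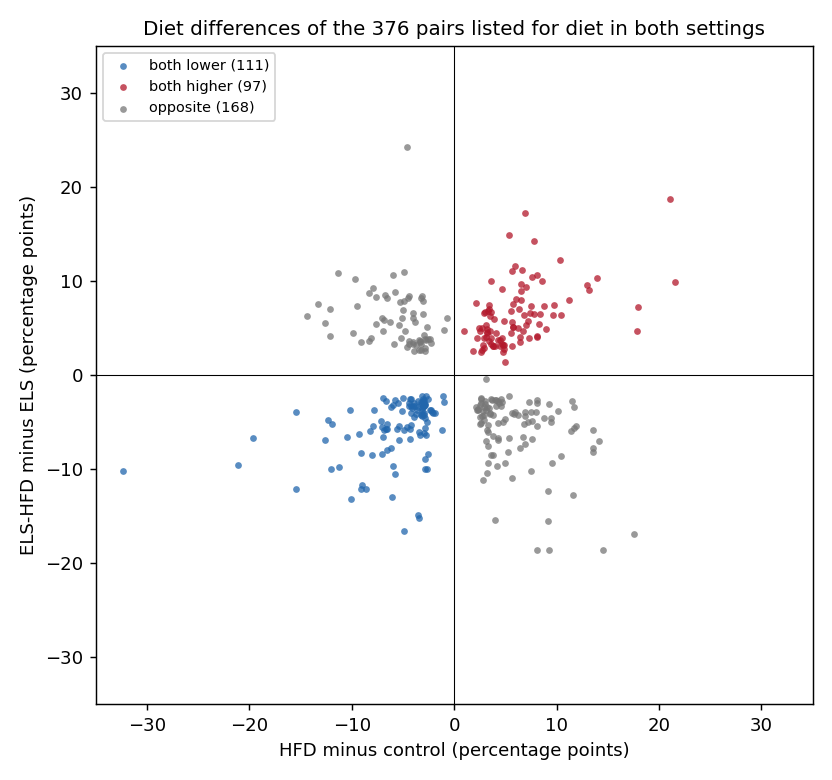
Diet difference of each of the 376 pairs, as HFD minus control on the x axis and ELS-HFD minus ELS on the y axis, both in percentage points of methylation. Each point is 1 pair, with 111 at the lower left (both lower), 97 at the upper right (both higher) and 168 at the upper left or lower right (opposite).

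The rule's edge of 1 bp separates like cases. Pairs that shared only 1 bp included one near a 7SK copy, at 7.95 and -3.92 percentage points (HFD minus control, then ELS-HFD minus ELS), and one near Bhmt2, at -2.197 and -3.896. Rows that touched without sharing a base included one near Cdkn2aip, at -1.64 and 2.88, and one near AABR07059193.1, at 9.13 and -3.91. The shared stretch had a median of 75 bp and ran up to 441 bp. It had identical ends in 92 pairs and covered at least 80% of both intervals in 153.

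Members differed from the rest of both tables in level. Their median methylation was 32.8% in the table of HFD against control, where all listed rows had 9.32%, and 31.7% in that of ELS-HFD against ELS, where all rows had 14.9%. Of the members in the first table, 53.9%, and 27.6% of all rows, lay between 20 and 80%. In the second these shares were 52.7% of the members and 30.4% of all rows. Both-higher members lay highest, at a median of 46.4% in the first table and 45.5% in the second, and both-lower members at 26.5% and 23.3%. The number of CpGs had a median of 10 in members and in all rows of both tables. This is the smallest number listed, so equal medians cannot show whether members differ in it.

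**Figure D2:**
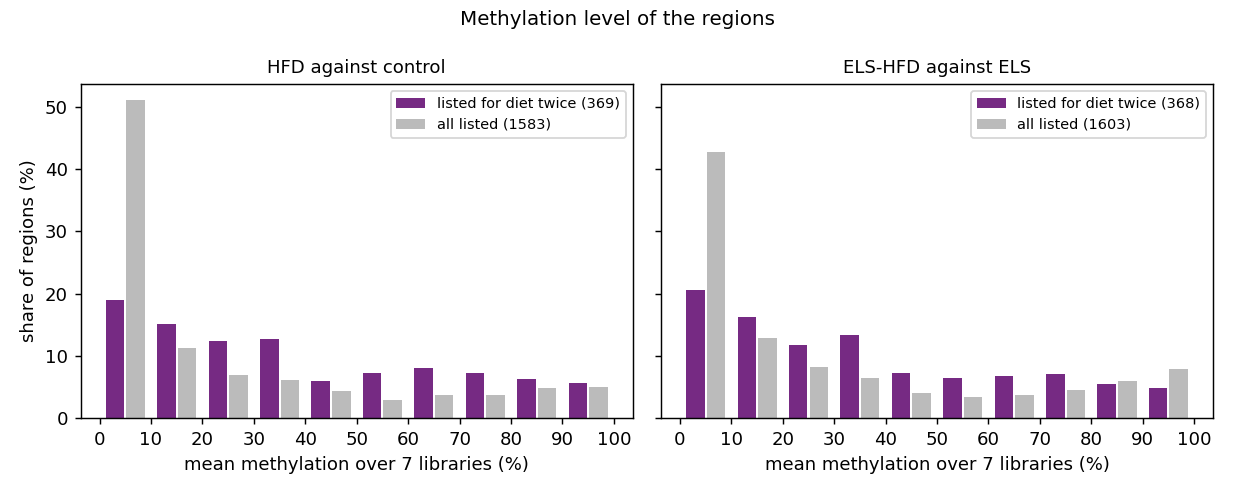
Share of regions in each 10-point class of mean methylation over the 7 libraries of a table, for members (purple) and all listed regions (grey), with HFD against control on the left and ELS-HFD against ELS on the right. Members are rarer in the lowest class, which holds 18.97% of them and 51.2% of all rows in the first table and 20.7% and 42.7% in the second.

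Members also varied more between libraries. The median range over the 7 libraries of a region was 15.6 percentage points in members and 9.798 in all rows for HFD against control, and 16.5 in members and 10.3 in all rows for ELS-HFD against ELS. A range over 30 points was found at 54 members (14.6%) against 5.81% of all rows in the first table, and at 59 (16.03%) against 6.92% in the second. Within the band from 20 to 80%, the median range was 22.2 in members and 18.3 in the other rows of the first table, and 22.2 and 18.9 in the second. Few members had groups that stood apart. The HFD and control libraries did not overlap at 43 of 376 pairs (11.4%), where 22.6% of the whole table did so, and the ELS-HFD and ELS libraries at 53 (14.1%), where the whole table had 24.1%. This share depended on level. It was 30.4% of all rows from 0 to 10% and 10.1% from 20 to 80% in the first table, and 36.5% and 8.2% in the second. From 20 to 80%, it was 7.54% of members and 12.2% of the other rows in the first table. In the second these were 6.7% and 9.18%. Only 8 of the 376 pairs had no overlap in both tables: 4 both higher, 2 both lower and 2 opposite. No chance level is given for this count.

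Promoters were rare among the members. In the table of HFD against control, 21 of 369 member rows (5.69%) were annotated as promoter against 16.6% of all rows, and in that of ELS-HFD against ELS 19 of 368 (5.16%) against 10.8%. Intergenic rows made up 42.5% of members and 36.01% of all rows in the first table and 42.4% and 40.8% in the second. Exons held 26.3 and 27.4% of the members and introns 20.6 and 19.8% in the first and the second table. The deposited distance to the nearest start had a median of 14567 bp in members and 6443 bp in all rows of the first table. The 2 intervals of a pair had the same nearest gene in 374 of 376 pairs.

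**Figure D3:**
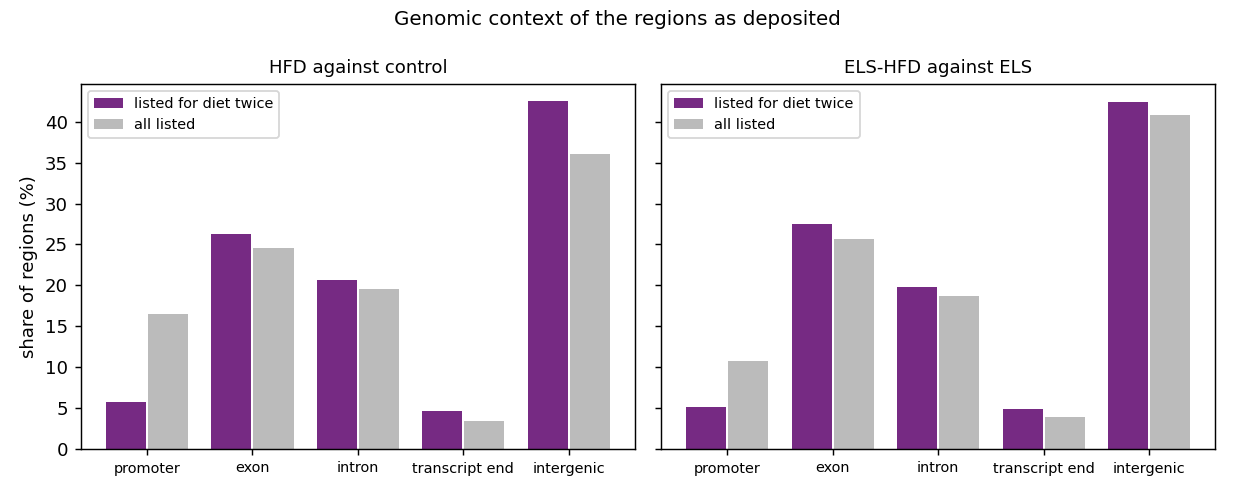
Share of regions by the deposited context, for members (purple) and all listed regions (grey), with HFD against control on the left and ELS-HFD against ELS on the right. Promoters take 5.69% of members against 16.6% of all rows on the left and 5.16% against 10.8% on the right.

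In the authors' deposited tables, 10 rows (0.632%) of HFD against control and 11 rows (0.686%) of ELS-HFD against ELS have a q-value under 0.05. Among the members 2 pairs had one in the first table and 7 pairs, from 5 rows, in the second, and none in both. The q-value was 1 in both tables at 357 of the 376 pairs. Of the 9 pairs with such a q-value, 7 were opposite, where 44.7% of all 376 pairs were. Of these 7, the 3 assigned to Arhgap21 rest on 1 row of the second table. The members below are therefore mostly listed candidates, and their values are given as measured.

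Of the 8 leading both-lower pairs, 4 were annotated as exon, 2 as intron, 1 as promoter and 1 as intergenic. Cbx6 encodes a chromobox protein of Polycomb repressive complex 1, and 4 pairs overlapped its last exon and last intron on chromosome 7. At the exon (chromosome 7, 121052809 to 121053017) methylation was 56.1, 52.7, 41.8 and 51.7% in HFD and 67.8, 59.4 and 70.9% in control. Over 121052924 to 121053035 the ELS-HFD libraries had 31.7, 37.8 and 19%, and the ELS libraries 50.9, 34.2, 55.2 and 26.2%. The HFD and control libraries did not overlap, while ELS-HFD and ELS did. The differences were -15.5 and -12.1 percentage points, and the second was -6.87 without the ELS-HFD library at 19%. In the intron (121053026 to 121053244) the means were 48.6 ± 6.58% in HFD and 57.7 ± 5.25% in control, and 37.9 ± 5.38% in ELS-HFD and 46.2 ± 5.197% in ELS over nearly the same interval.

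Pag1, which encodes an adaptor protein that brings the kinase Csk to the membrane, had the largest diet difference of the both-lower pairs without separation. Its exon 5 region (chromosome 2, 94272774 to 94272806) stood at 57.5, 4.63, 8.85 and 6.54% in HFD and at 4.69, 52.6 and 97.7% in control. In separated males it stood at 1.58, 5.79 and 0.747% in ELS-HFD and at 5.92, 36.9, 4.01 and 4.86% in ELS. Single libraries thus set the means: 4 of 14 libraries lay above 35% and the other 10 below 10%. The difference of -32.3 points between HFD and control was -55.8 to -9.28 when 1 library was left out, and that of -10.2 between ELS-HFD and ELS was -13.2 to -2.23.

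Sod1 encodes the copper-zinc superoxide dismutase, and its region lay in exon 1 (chromosome 11, 30363366 to 30363416) in both tables. Without separation it measured 17.2, 1.95, 27.2 and 15.1% in HFD and 25.3, 27.05 and 29.7% in control. The ELS-HFD libraries had 3.29, 16.9 and 2.701%, and the ELS libraries 19.6, 17.3, 15.1 and 18.4%. In each setting the chow libraries lay within 5 points of each other, and 1 diet library reached into their range. The Cdk15 promoter region (chromosome 9, 66058020 to 66058156) had 51.4, 48.9, 33.6 and 54.7% in HFD against 65.4, 60.8 and 48.9% in control, and 57.6, 36.02 and 48.2% in ELS-HFD against 60.1, 49.8, 65.1 and 53.1% in ELS. Its groups overlapped in both settings.

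The leading 8 also held 3 further loci. Intron 1 of Tm4sf20, a gene of the transmembrane 4 L6 family (chromosome 9, 88528868 to 88529030), had 60.7 ± 7.85% in HFD and 69.7 ± 1.41% in control. Its second interval had 47.5 ± 3.08% in ELS-HFD and 59.1 ± 9.79% in ELS, and there the libraries did not overlap. An intergenic region near AABR07009373.2 (chromosome 2, 94872583 to 94872909) had 41.3 ± 10.7% in HFD and 62.4 ± 20.2% in control, and 27.5 ± 15.1% in ELS-HFD and 37.02 ± 11.99% in ELS. An exon of transcript ENSRNOT00000004741 next to AABR07020815.1 on chromosome 13 had 56.7 ± 10.7% in HFD and 66.8 ± 3.02% in control, and 49.4 ± 11.5% in ELS-HFD and 62.6 ± 5.48% in ELS.

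Both-higher members led with an intergenic region on chromosome 18 (81018355 to 81018636), 78620 bp from the start of Zadh2, a prostaglandin reductase gene. It stood at 80.9, 43.96, 81.3 and 6.11% in HFD and at 5.91, 43.9 and 46.3% in control. Its ELS-HFD libraries had 37.6, 45.9 and 89.9%, and its ELS libraries 42.3, 35.8, 38.8 and 39.5%. The unseparated libraries were thus spread from near 6 to above 80%, while the 4 ELS libraries were within 7 points of each other. The means differed by 21.04 points without separation and by 18.7 points after it. They differed by 7.99 points without the control library at 5.91%, and by 2.61 points without the ELS-HFD library at 89.9%. Gclc encodes the catalytic subunit of the enzyme that starts glutathione synthesis. A region at -10186 bp from its start (chromosome 8, 85048831 to 85048900) had 41.7, 57.8, 44.1 and 61.5% in HFD and 36.4, 44.5 and 31.05% in control. In separated males it had 40.3, 48.3 and 60.9% in ELS-HFD and 41.1, 23.7, 38.7 and 54.4% in ELS. The groups overlapped in both settings.

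Pear1, a platelet receptor gene, was the nearest gene of a both-higher pair in exon 12 of transcript ENSRNOT00000019502 (chromosome 2, 187121198 to 187121263). It had 80.3, 85.95, 65.05 and 22.7% in HFD and 23.6, 82.8 and 45.3% in control, and 82.7, 82.1 and 63.2% in ELS-HFD and 50.6, 81.5, 54.6 and 79.001% in ELS. Without the control library at 23.6% its HFD difference of 12.9 points became -0.526. Exon 1 of Zbtb47, a zinc finger gene (chromosome 8, 130402147 to 130402629), was tighter, at 57.98 ± 6.34% in HFD and 49.4 ± 5.61% in control, and 54.8 ± 6.72% in ELS-HFD and 44.8 ± 5.68% in ELS over a partly shared interval. Intron 2 of AABR07065276.1 on chromosome 6 had 47.6, 1.71, 42.6 and 0.769% in HFD and 0, 1.25 and 3.46% in control, and 1.59, 44.7 and 41.9% in ELS-HFD and 3.68, 20.9, 53.5 and 0% in ELS. In all, 5 of its 14 libraries stood above 40%, none of them a control library. A region in intron 2 of transcript ENSRNOT00000007326, nearest to a 7SK copy (chromosome 7, 97662408 to 97662530), had 85.8, 14.3, 15.996 and 23.9% in HFD and 23.3, 27.1 and 30.4% in control, and 56.7, 49.8 and 25.96% in ELS-HFD and 51.6, 13.04, 13.7 and 55.9% in ELS. Its HFD difference of 8.06 points became -8.87 without the HFD library at 85.8%.

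The plot of single libraries shows how the leading pairs of each direction differ in this respect.

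**Figure D4:**
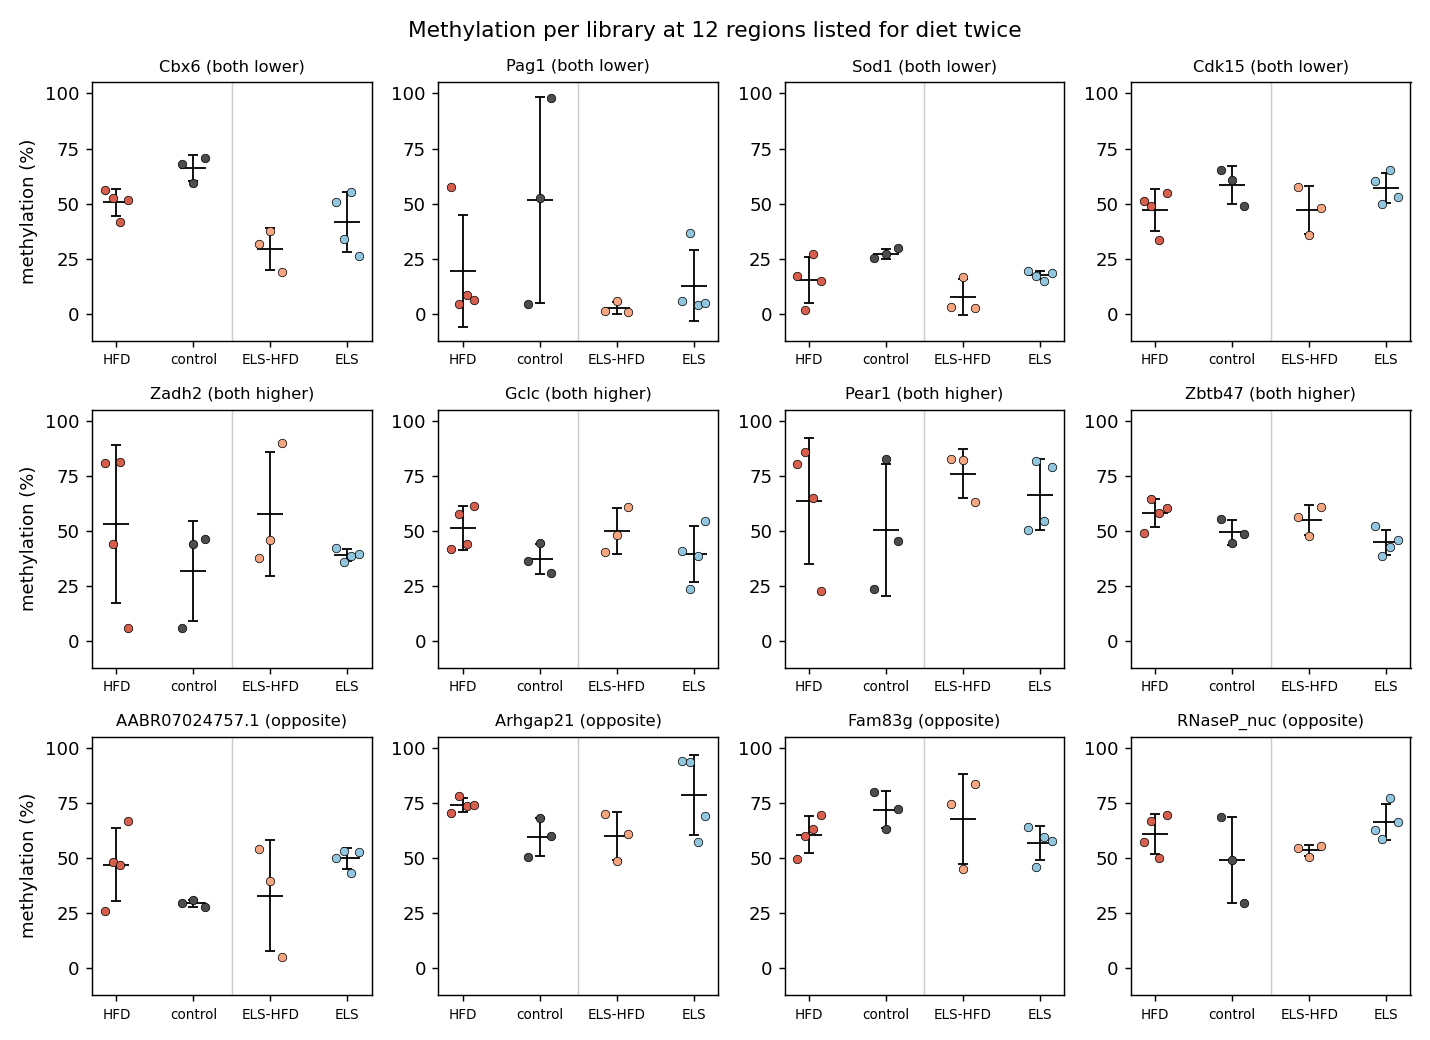
Methylation in percent of every library at 12 regions, 4 both lower, 4 both higher and 4 opposite, with HFD left of control and ELS-HFD left of ELS. Points are libraries, the bar is the mean and the whisker 1 SD. Pag1 and Zadh2 show libraries far apart within a group, while Zbtb47 and Cdk15 show groups that overlap at close levels.

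Opposite pairs are those at which the diet difference changed sign with separation. The leading one was intergenic (chromosome 16, 14837488 to 14837592; nearest gene AABR07024757.1). It measured 26.1, 48.04, 46.99 and 66.8% in HFD, with control at 29.6, 30.9 and 27.9%. The ELS-HFD libraries had 54.04, 39.6 and 5.04% and the ELS libraries 50.1, 53.3, 43.2 and 52.7%. The chow groups were narrow at different levels, and the diet groups were wide and overlapped them. The means differed by 17.5 points without separation and by -16.9 points after it. Without the HFD library at 66.8% the first difference was 10.9, and without the ELS-HFD library at 5.04% the second was -2.995.

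An exon region of transcript ENSRNOT00000073718 on chromosome 17, assigned in the files to the start of Arhgap21, 203705 bp away, gave 3 opposite pairs with 1 row of the second table (87622291 to 87622922). In the authors' deposited table this row carries q = 1.23e-07. ELS-HFD had 70.2, 48.4 and 60.9% and ELS 93.8, 93.4, 57.4 and 69.05%. In the pair with the largest HFD difference (87622621 to 87622811), HFD had 70.2, 78.1, 73.6 and 74.2% and control 50.7, 67.98 and 59.98%, with no overlap. For Slc46a3, a lysosomal transporter gene, the authors' deposited table of HFD against control lists q = 7.04e-06. In its intron 2 (chromosome 12, 8729035 to 8729288), HFD had 28.3, 3.39, 4.11 and 5.05% and control 4.89, 32.98 and 35.98%, while ELS-HFD had 4.39, 28.1 and 3.54% and ELS 7.21, 4.23, 6.08 and 5.36%. At Slc46a3, 4 of 14 libraries stood near 30% and the other 10 below 8%. Its difference after separation, 6.29 points, became -1.75 without the ELS-HFD library at 28.1%.

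The largest diet difference after separation among the opposite pairs was in intron 2 of Kctd2, a potassium channel tetramerization domain gene, named after its values were seen (chromosome 10, 103975100 to 103975183). Its ELS-HFD libraries had 56.3, 46.4 and 45.8% and its ELS libraries 18.96, 14.01, 48.8 and 19.5%. Without separation it stood at 17.1, 19.9, 21.1 and 46.4% in HFD and at 47.4, 17.2 and 27.6% in control. The means differed by -4.58 points without separation and by 24.2 points after it, and the libraries overlapped in both settings.

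Further opposite pairs included a transcript end near Fam83g (chromosome 10, 47950561 to 47950657), with 60.6 ± 8.45% in HFD and 71.9 ± 8.39% in control, and 67.7 ± 20.2% in ELS-HFD and 56.9 ± 7.72% in ELS. An intergenic region near AC131806.2 on chromosome 19 had 36.9 ± 9.097% in HFD and 27.3 ± 6.79% in control, and 29.6 ± 3.24% in ELS-HFD and 38.9 ± 8.87% in ELS. The promoter region of AABR07060610.1 on chromosome 4 had 47.7 ± 9.72% in HFD and 57.3 ± 8.63% in control, and 62.3 ± 11.5% in ELS-HFD and 52.03 ± 7.496% in ELS. Another 3 opposite pairs lay at levels under 20% with a q-value under 0.05 in 1 of the authors' deposited tables. RGD1560108 had 7.94 ± 3.06% in HFD and 3.17 ± 3.75% in control, and 0.548 ± 0.371% in ELS-HFD and 5.49 ± 3.91% in ELS. Its intervals share only 4 bp, so the opposite signs come from largely different bases. A region near Dlg5, a scaffold protein gene, had 5.88 ± 5.43% in HFD and 3.28 ± 2.12% in control, and 2.14 ± 0.808% in ELS-HFD and 7.26 ± 1.17% in ELS. The end of a 5.8S rRNA copy (chromosome 1, 11906246 to 11906328) had 13.05 ± 10.1% in HFD and 15.9 ± 5.65% in control, and 10.8 ± 4.74% in ELS-HFD and 7.93 ± 3.74% in ELS. Its HFD difference of -2.82 points became 0.395 without the control library at 22.3%. The 2 same-direction pairs with such a q-value were Zfp219, both lower, and the intronic region nearest to Alpl, both higher. Zfp219, a zinc finger gene, had 22.1 ± 3.85% in HFD and 25.6 ± 18.1% in control, and 11.5 ± 2.42% in ELS-HFD and 26.7 ± 9.71% in ELS. Its HFD difference of -3.47 points became 6.47 without the control library at 45.5%. The region nearest to Alpl, the alkaline phosphatase gene of bone and liver, had 67.9 ± 8.69% in HFD and 62.2 ± 8.57% in control, and 76.6 ± 16.98% in ELS-HFD and 65.5 ± 7.16% in ELS.

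The 8 pairs without overlap in both tables had small differences and narrow groups. Dennd2b, a gene with a DENN domain, had 13.8, 15.6, 15.8 and 16.2% in HFD and 11.4, 10.96 and 10.7% in control at its intron 2 (chromosome 1, 174233855 to 174233874). There ELS-HFD had 13.1, 10.5 and 13.3% and ELS 8.62, 5.78, 9.902 and 9.92%. An intergenic region near the microRNA gene rno-mir-3542-1 on chromosome 17 had 90.4 ± 1.74% in HFD and 87.5 ± 0.508% in control, and 91.5 ± 0.147% in ELS-HFD and 88.6 ± 3.64% in ELS. Exon 4 of Proser2, with Upf2 as its nearest gene, had 3.69 ± 2.66% in HFD and 0.876 ± 0.659% in control, and 4.28 ± 0.903% in ELS-HFD and 1.07 ± 0.684% in ELS. The intervals of this pair share only 7 bp. Intron 1 of Lrp5, a Wnt co-receptor gene (chromosome 1, 218919432 to 218919556), had 1.11, 3.77, 1.89 and 6.503% in HFD and 0.964, 0.825 and 0.4203% in control. Its second interval had 4.46, 2.67 and 1.61% in ELS-HFD and 0.109, 0.161, 0.323 and 1.03% in ELS. These 4 regions were both higher.

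The both-lower pairs without overlap were an exon near Snai1, a gene of the Snail family of repressors, and a transcript end at Grin3b, an NMDA receptor subunit gene that was named after its values were seen. The Snai1 region (chromosome 3, 164275392 to 164275457) had 4.19, 4.63, 3.84 and 3.24% in HFD and 9.63, 8.67 and 5.82% in control, and 2.01, 4.61 and 5.49% in ELS-HFD and 8.49, 5.73, 6.07 and 8.81% in ELS. Grin3b had 1.26 ± 1.11% in HFD and 4.81 ± 2.87% in control, and 1.31 ± 0.292% in ELS-HFD and 4.12 ± 1.26% in ELS, over intervals that share only a few bases. The opposite ones were intron 4 of Vom2r37, a vomeronasal receptor gene, and exon 16 of Gucy2d, a guanylate cyclase gene. Vom2r37 (chromosome 1, 99033965 to 99034060) had 90.2, 91.97, 90.2 and 88.4% in HFD and 87.2, 86.01 and 85.9% in control, and 85.9, 84.9 and 82.04% in ELS-HFD and 88.6, 88.3, 89.4 and 87.6% in ELS. Gucy2d (chromosome 10, 55837904 to 55838006) had 5.79, 7.36, 8.54 and 13.03% in HFD and 3.48, 4.65 and 4.67% in control, and 4.599, 4.07 and 4.45% in ELS-HFD and 7.34, 5.36, 5.82 and 10.7% in ELS.

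Members were also counted by gene lists, matched to the deposited nearest gene and chosen with earlier results of these data known. Rows listed in the first and second table numbered 63 and 44 for homeobox and patterning factors and 44 and 40 for zinc finger factors. Small GTPases and regulators had 32 and 27, ion channel and receptor genes 31 and 25, and axon guidance and cadherin genes 24 and 18. Solute carriers had 20 and 22, insulin and lipid genes 17 and 14, and chromatin regulators 7 and 12. Over all listed rows, 23.3% and 22.96% were members. Homeobox and patterning factors had 16 pairs, 8 both higher, 2 both lower and 6 opposite, with medians of 3.004 points for HFD minus control and 3.74 for ELS-HFD minus ELS. Over all listed rows these medians were 2.45 and -2.75. The pairs mark fewer genes, since Cux2 and Tbx3 gave 2 both-higher pairs each and Pou2f2 gave 2 opposite pairs. Pax2, a factor of kidney and eye development, was both higher at exon 3 (chromosome 1, 264508893 to 264509028), with 40.9 ± 9.801% in HFD and 33.9 ± 2.75% in control, and 52.3 ± 10.7% in ELS-HFD and 42.9 ± 1.09% in ELS. The promoter region of Cux2, a homeobox gene of upper-layer cortical neurons, had 39.6 ± 4.03% in HFD and 33.8 ± 6.33% in control, and 42.9 ± 10.1% in ELS-HFD and 37.7 ± 4.19% in ELS. For Cux2 the difference after separation, 5.14 points, became -0.0556 without the ELS-HFD library at 53.3%. Prrx1, a limb and mesenchyme factor, was opposite at 40.2 ± 9.44% in HFD and 47.9 ± 3.97% in control, and 48.6 ± 10.6% in ELS-HFD and 43.2 ± 16.7% in ELS. For Prrx1 that difference, 5.38 points, became -0.223 without the ELS library at 26.4%.

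By nearest gene, chromatin and DNA methylation regulators had 5 pairs, all both lower. Of these, 4 were at Cbx6 and the other was intergenic near Kat14, so they mark few loci. Another 2 pairs, counted as solute carriers by their nearest gene Slc48a1, lay in exons of Hdac7, a histone deacetylase gene. The pair in exon 10 was both lower and the pair in exon 13 opposite. Zinc finger factors had 12 pairs, 7 both lower, 2 both higher and 3 opposite. Small GTPases and their regulators had 11 (1 both lower, 3 both higher, 7 opposite), of which 3 were at the region assigned to Arhgap21. Ion channel and receptor genes had 6 (1 both lower, 3 both higher, 2 opposite). Among them Cacna1i, a T-type calcium channel gene, had 28.98 ± 12.1% in HFD and 17.7 ± 5.46% in control, and 31.1 ± 12.7% in ELS-HFD and 23.2 ± 7.15% in ELS. Kcnj4, an inward rectifier potassium channel gene, had 77.5 ± 5.65% in HFD and 70.8 ± 8.64% in control, and 78.1 ± 5.38% in ELS-HFD and 73.4 ± 8.57% in ELS.

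Axon guidance and cadherin genes had 5 pairs (2 both lower, 2 both higher, 1 opposite). Sema5b, a semaphorin gene, had 4.24 ± 1.497% in HFD and 7.01 ± 3.9003% in control at an interval annotated as exon 6. Its second interval, annotated as intron 5 and sharing 49 bp with the first, had 1.67 ± 1.55% in ELS-HFD and 8.02 ± 2.53% in ELS. Ephb1, an ephrin receptor gene, had 41.6 ± 17.98% in HFD and 23.7 ± 14.8% in control, and 38.8 ± 26.4% in ELS-HFD and 34.1 ± 20.4% in ELS. At Ephb1 the difference after separation, 4.74 points, became -9.97 without the ELS-HFD library at 68.2%. Solute carriers had 5 (1 both lower, 4 opposite), of which 2 lay in exons of Hdac7. Insulin and lipid genes had 3, all both higher: Lrp5, Acacb and Pik3c2g. Acacb, a mitochondrial acetyl-CoA carboxylase gene, had 17.1 ± 5.86% in HFD and 14.6 ± 5.77% in control, and 23.5 ± 14.7% in ELS-HFD and 18.8 ± 4.79% in ELS. The Acacb difference after separation, 4.69 points, became -3.79 without the ELS-HFD library at 40.5%. Pik3c2g, a class II phosphoinositide 3-kinase gene, had 35.2 ± 4.77% in HFD and 32.3 ± 1.63% in control, and 36.4 ± 9.45% in ELS-HFD and 32.5 ± 7.87% in ELS. The Wnt pathway had 3 pairs, 1 in each direction, and Wnt11, the opposite one, had 31.4 ± 12.4% in HFD and 21.9 ± 5.78% in control, and 19.96 ± 6.11% in ELS-HFD and 24.6 ± 8.66% in ELS. Stress hormone and neurotrophin genes had 1, upstream of the neurotrophin receptor gene Ngfr, both higher, with 27.1 ± 5.08% in HFD and 19.5 ± 1.12% in control, and 29.04 ± 5.26% in ELS-HFD and 18.6 ± 8.78% in ELS. Germline genes had 1, intergenic at -33475 bp from the start of the PIWI gene Piwil1, both lower, with 87.8 ± 3.02% in HFD and 91.3 ± 1.38% in control, and 80.1 ± 16.01% in ELS-HFD and 95.04 ± 1.99% in ELS. The intervals of the Piwil1 pair share only 6 bp. Imprinted genes had 7 rows in the first table and 8 in the second, and no pair. The Wnt list had 6 and 8 such rows, the stress hormone and neurotrophin list 6 and 3, and the germline list 4 and 3.

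A copy of 5S, 5.8S, 7SK, U2, U6 or RNase P RNA was the nearest annotation of 35 pairs. The 5.8S ribosomal RNA copies had 14 of these pairs, 11 both higher, 3 opposite and 0 both lower, at -64447 to 39834 bp from the start of the copy. Of all members, 25.8% were both higher. These 14 pairs had 13 starts of the first interval on 4 chromosomes, so they are not all independent, and their directions were not tested. How reads from near-identical copies were assigned is not given in the sources used here. The largest of them (chromosome 7, 22453137 to 22453190) had 68.6, 83.3, 81.7 and 79.2% in HFD and 75.8, 57.97 and 61.3% in control, and 80.5, 62.8 and 77.9% in ELS-HFD and 59.1, 58.4, 64.5 and 76.9% in ELS. Its groups overlapped in both settings.

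Maternal separation is the contrast the rule did not use. It was tested at the 153 members whose intervals overlap by at least 80%, since a member takes the unseparated groups from one interval and the separated groups from the other. limma was fitted to log2((percent + 1) / (100 - percent + 1)) over 289 regions with values of all 14 libraries: these 153 and 136 others from the 2 tables of separation, which were listed for that very difference. With Benjamini-Hochberg adjustment limma passed 0 of the 289 (0%) at an adjusted p of 0.05, so none of the 153 members. At an unadjusted limma p under 0.05 there were 17 members (11.1%), 13 lower and 4 higher in separated males, beside 69 of all 289 (23.9%) and 52 of the 136 others (38.2%). The median separation difference of the members was -0.16 on this log2 scale and that of all 289 regions -0.24. Leaving out 1 library gave member medians from -0.21 to -0.08. The median was -0.08 without the ELS-HFD library most often lowest of its group, and -0.096 without the ELS library most often lowest. Of the 17, 11 were among the 48 both-lower pairs of the fit, 3 among the 35 both-higher and 3 among the 70 opposite. With unequal numbers of libraries and equal weights, this contrast is not independent of the diet differences that set the directions. The split by direction is therefore a description and was not tested.

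The members with the smallest p were named after their values were seen. Under other settings limma passed 1 member at most. It passed Dnah5 without the control library in column 1 (adjusted p = 0.0457). Tbx3 passed limma with groups weighted by their numbers of libraries (adjusted p = 0.0473). Patz1, higher in separated males, passed limma with an overlap of at least 50% of both intervals (adjusted p = 0.0312). An intergenic region at -39066 bp from the start of Dnah5, a gene of the ciliary dynein arm (chromosome 2, 80909447 to 80909737), had 9.05% in ELS-HFD and 13.8% in ELS, against 15.4% in HFD and 27.8% in control, with a difference of -1.04 ± 0.26 (SE) on the log2 scale and an adjusted limma p of 0.0544. Exon 7 of Tbx3, a T-box factor, had 84.4% in ELS-HFD and 81.3% in ELS, against 91.3% in HFD and 86.7% in control (limma, adjusted p = 0.0699). The Cbx6 intron region was lower by 11.1 points in separated males in the mean of both diets, which limma did not pass (adjusted p = 0.0858). Intron 9 of Disc1, a gene studied in psychiatric illness, has AABR07044106.1 as its nearest start (chromosome 19, 58002143 to 58002242). It had 7.81% in ELS-HFD and 11.9% in ELS, against 30.9% in HFD and 35.2% in control (limma, adjusted p = 0.0858). The Pax2 exon was higher in separated males, by 10.2 points (limma, adjusted p = 0.137), and the Topaz1 promoter by 2.41 points (limma, adjusted p = 0.121).

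**Figure D5:**
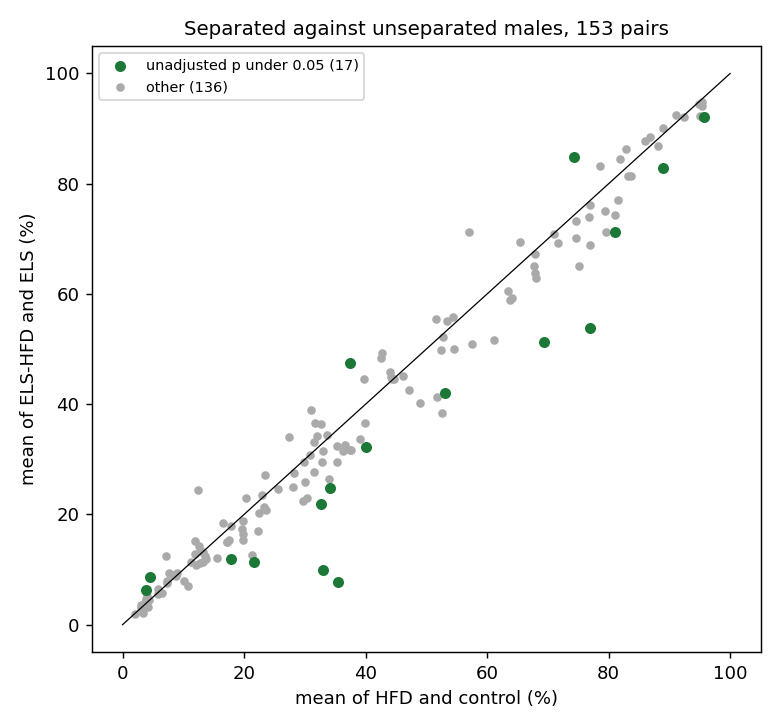
Mean methylation of separated males (ELS-HFD and ELS, y axis) against unseparated males (HFD and control, x axis), in percent, at the 153 members whose intervals overlap by at least 80%. Green points are the 17 members with an unadjusted limma p under 0.05, 13 of them below the line of equality, and none passed the adjustment.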

How the data were processed

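Sperm DNA was assayed with the Zymo-Seq RRBS kit, per the labels. The submitters' processing notes name Trim Galore, Bismark, Bowtie and the assembly Rnor_6.0, without versions, and the series' design text speaks of amygdala RNA, which is not what the labels and files hold. Per the file headers, each table is metilene output with the count of CpGs per region. The deposited tables give each library's methylation in percent, the authors' p-values and q-values, and a signed difference, which is a score on the percent scale. In members the deposited difference departs from the difference of library means by up to 4.82 percentage points, and 1 member has another sign.

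Rows of the 2 diet tables were paired at 1 bp of overlap, and directions were taken from means of the library columns. Members and gene lists (12 lists) were chosen with earlier results of these data known. Named members were ranked by the smaller of their 2 absolute diet differences: the first 8 both lower, 8 both higher and 6 opposite, those with a q-value under 0.05, up to 6 without overlap in both tables, up to 3 a gene list, and any past the separation test. Of the 57 named, the report gives most. The separation term was tested with limma 3.58.1 (R 4.3.3), with each diet group weighted equally, an offset of 1 percent and Benjamini-Hochberg adjustment over 289 regions. The fit was tested on simulated data. It compares different intervals of a pair where these are not identical. The labels do not state separate animals, so p-values measure only the spread between samples, which may be technical. Read depth is unknown, so no counting interval is given. Alternatives changed the overlap, the minimum difference, the number of CpGs, the scale and the libraries. The other 3 tables were used only for the separation fit, tissue markers and overlaps.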

Additional observations from a re-analysis of the deposited data

Results flagged for a closer look

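In 6 of 114 groups of 4 libraries at the named members, 1 library lay far from the other 3 of its group (Dixon's gap test, 95% level). Chance flags about 1 in 20 groups, which is near this share. The library was the highest of its HFD group near a 7SK copy on chromosome 7 (85.8%), at Pag1 (57.5%), at Slc46a3 (28.3%) and at the chromosome 1 copy of 5.8S rRNA (28.1%). It was the highest of the ELS group at Pag1 (36.9%) and the lowest of the ELS group near rno-mir-3542-1 (83.2%).

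At Vom2r37 every HFD library lay above every control library, with a difference of 3.83 percentage points, while every ELS-HFD library lay below every ELS library, with a difference of -4.21. At Gucy2d these differences were 4.42 and -2.93, also without overlap. The opposite sign chose both regions, and the difference between the settings was not tested.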

How the results depend on the processing

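Each count of pairs was within 1.5 times its value under deposited differences, medians, the log2 odds scale, autosomes only and, chosen after seeing the data, without the 35 pairs nearest to a 5S, 5.8S, 7SK, U2, U6 or RNase P RNA copy or with each region counted once. Stricter rules left fewer pairs by construction. Both-lower, both-higher and opposite pairs numbered 26, 22 and 44 with identical intervals, 33, 41 and 49 with differences of at least 5 percentage points in both tables, 8, 4 and 9 with at least 15 CpGs, and 1, 1 and 7 with a q-value under 0.05 in either table. With an overlap of at least 50% of both intervals, both-higher pairs numbered 62. Leaving out 1 library gave 107 to 115 both lower, 88 to 100 both higher and 165 to 174 opposite, and 282 of 376 pairs (75%) kept their direction whichever library was left out.

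Past the limma separation term there was 1 member with an overlap of at least 50% (Patz1, higher in separated males) and 1 with group means weighted by library numbers (Tbx3), and 0 to 1 when 1 library was left out (Dnah5 without the control library in column 1). The cause was not tested.

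With medians of libraries the sign turned for 7SK (-7.16) and Zfp219 (0.772) in HFD minus control, and for Ephb1 (-1.12), Hcn2 (-0.664), Acacb (-1.93) and Slc46a3 (-1.33) in ELS-HFD minus ELS. Leaving out 1 library moved 77 of the 114 diet differences of named members by over 1.5 times, and turned the sign of 12 of them. For HFD minus control the ranges were -0.526 to 29.04 at Pear1, -8.87 to 14.97 at 7SK, -0.732 to 11.9 at Hcn2, -11.2 to 6.47 at Zfp219 and -7.85 to 0.395 at the 5.8S copy on chromosome 1. For ELS-HFD minus ELS they were -0.0556 to 9.98 at Cux2, -9.97 to 15.6 at Ephb1, -4.98 to 11.5 at Hcn2, -3.79 to 9.26 at Acacb, -9.77 to 1.96 at Dkk2, -1.75 to 10.5 at Slc46a3 and -0.223 to 12.8 at Prrx1.

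No paired analysis was possible because the library columns carry no replicate number. The unknown read depth limits what any single library shows.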

Other observations

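The pairs were spread unevenly over the chromosomes. Chromosome 7 held 44 pairs (19 both higher, 13 both lower and 12 opposite), among 122 listed rows of HFD against control and 150 of ELS-HFD against ELS. The X chromosome held 0 pairs among 12 and 18 listed rows. Of the 376 pairs, 202 (53.7%) also overlapped a row of the table of ELS against control, 196 (52.1%) one of ELS-HFD against HFD and 216 (57.4%) one of ELS-HFD against control. These tables share libraries with the diet tables, so the overlaps are given as counts only.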
